A study of Mus musculus with 8 samples.

Results

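Insulin-like growth factor 1 (*Igf1*), its receptor (*Igf1r*) and the genes of 6 IGF-binding proteins (*Igfbp2*, *Igfbp3*, *Igfbp4*, *Igfbp5*, *Igfbp6* and *Igfbp7*) were followed in mouse mesenchymal stem cells (MSCs) of bone marrow. These 8 genes were taken by their symbols from a table of 24346 genes. They were chosen with earlier results of these data known, so counts of members beside shares of all genes are descriptions. The RNA of 8 samples had been sequenced, a pair for each of 4 groups: undifferentiated MSCs of WT and of *Dnmt3l* KO mice, and differentiating MSCs of both genotypes. The differentiating cells had spent 3 days in osteogenic induction medium, and all cells were at passage 4. DNMT3L is a cofactor of the de novo DNA methyltransferases. KO mice were homozygous for the tmEnls allele of *Dnmt3l* on the C57BL/6 background, WT mice were their littermates, and per the study's methods the cells came from females of 8 to 16 weeks. The marrow cells of 3 mice of a genotype were mixed and depleted of CD11b- and CD45-positive cells. No source used here states whether a group's 2 libraries were made from different mixes or cultures, so a p-value measures only the spread between these libraries, which may be technical. Growth medium held 20% fetal bovine serum, while induction medium held 10% serum with 0.1 µM dexamethasone, a synthetic glucocorticoid, β-glycerophosphate and an ascorbic acid salt. A difference between differentiating and undifferentiated MSCs therefore covers the change in serum, the added agents and the time in culture together, and these cannot be told apart.

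IGF1 is a secreted growth factor that binds the receptor tyrosine kinase IGF1R, which signals through insulin receptor substrates to the PI3K and AKT kinases and to the MAP kinases. In bone, IGF1 made by osteoblast-lineage cells and supplied by the liver supports the formation and survival of osteoblasts. Most IGF1 outside cells is held by IGF-binding proteins (IGFBPs), which keep it from the receptor, carry it, or bring it to the matrix, and which proteases cut to release it. IGFBP3 and IGFBP5 can also form a ternary complex with the acid-labile subunit, IGFBP6 prefers IGF2, and IGFBP7 is a related protein that binds IGFs only weakly.

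Values are RPKM, the reads of a gene per kilobase of its transcript divided by the mapped reads of that library. This adjusts for transcript length and depth, but not for a shift in the makeup of the RNA between libraries. *Dnmt3l* itself was at 0.830 to 1.56 RPKM in the 4 WT libraries and at 0 in the 4 KO libraries. The paper reports that the WT reads of this gene covered only its later exons. It also reports that the canonical DNMT3L protein was not detected in cultured MSCs. Depth, estimated from the steps between low values, was 48.0 to 66.9 M scaled reads a library. *Thy1*, a surface marker of MSCs, was at group means of 62.3 to 89.1 RPKM, and all 8 MSC markers examined averaged 0.5 RPKM or more in each group. These markers did not move as one. On induction *Ly6a* went from means of 474 to 1847 RPKM in WT and from 646 to 2563 RPKM in KO MSCs. *Cd44* went from 174 to 97.7 RPKM in WT and from 231 to 57.9 RPKM in KO MSCs. *Ptprc*, which encodes CD45, was at 0.127 RPKM or less in every library, while *Lyz2*, a macrophage gene, averaged 13.1 RPKM in undifferentiated and 24.7 RPKM in differentiating WT cells, against 3.31 and 7.24 RPKM in the KO cells. A gene can be listed at 0 for a technical reason in these values, since *Actb*, which every cell uses, is listed at 0 in undifferentiated KO MSCs and at a mean of 4264 RPKM in undifferentiated WT MSCs. No member was listed at 0 in a library.

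Binding protein transcripts were abundant in these cells and the ligand was not. In every library *Igfbp7*, *Igfbp4* and *Igfbp2* stood above at least 98.2% of the genes of the table, whereas *Igf1* stood at the 49.0th to 70.2nd percentile. *Igf1r* lay at the 76.0th to 79.1st percentile. *Igfbp3* moved furthest along this scale, from the 51.6th to 56.6th percentile in undifferentiated MSCs to the 95.3rd to 98.6th percentile in differentiating MSCs.

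**Figure D1:**
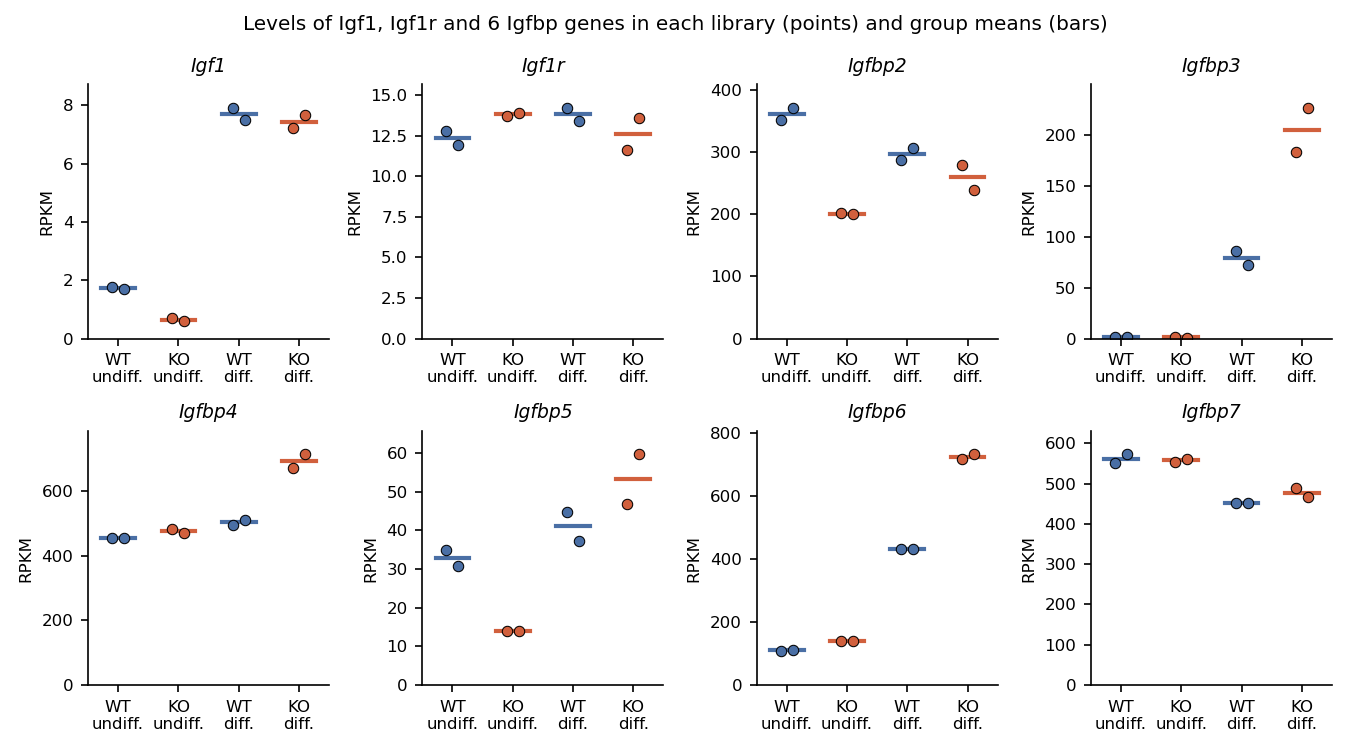
Levels of the 8 genes in RPKM (vertical axes, starting at 0) in undifferentiated (undiff.) and differentiating (diff.) WT MSCs (blue) and *Dnmt3l* KO MSCs (orange); each point is a library and each horizontal bar the mean of 2 libraries. *Igf1* and *Igfbp3* are low in both undifferentiated groups and high in both differentiating groups, *Igfbp5* is lowest in undifferentiated KO MSCs at 13.9 RPKM, and *Igf1r* stays between 11.6 and 14.2 RPKM.

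Differences were tested in limma on log2(RPKM + 0.1), and p-values were adjusted over all 15342 tested genes. A gene passed the test at an adjusted p under 0.05, and it was a differentially expressed gene (DEG) if its log2 fold change was also above 1 or below -1. On this scale the fold change of a low gene is understated. In undifferentiated MSCs 2 of the 8 members were downregulated DEGs in KO against WT (*Igf1* and *Igfbp5*), where 1.09% of all tested genes were, and 0 were upregulated, where 0.613% were. In differentiating MSCs 1 member was an upregulated DEG (*Igfbp3*, against 1.36% of all genes) and 0 were downregulated (1.95% of all genes). Without the fold limit, 5 members passed in undifferentiated and 3 in differentiating MSCs, and the shares of all genes that passed were 32.2% and 40.7%. These shares changed when 1 library was left out. The former was far lower without any 1 of the 4 undifferentiated libraries, and the latter without replicate 2 of differentiating WT MSCs. A compared group then holds 1 library, which weakens the test. Both shares were higher without replicate 1 of differentiating KO MSCs. With a library left out, 4 or 5 members passed in undifferentiated and 3 to 5 in differentiating MSCs.

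Osteogenic induction moved more of the members and more of the transcriptome. In WT MSCs 3 members were upregulated DEGs (*Igf1*, *Igfbp3* and *Igfbp6*), where 9.69% of all genes were, and 0 were downregulated, where 4.63% were. With quantile normalization the DEGs of all genes were 1212 up and 937 down in this comparison, in place of 1487 and 711. In KO MSCs 4 members were upregulated DEGs (the same 3 and *Igfbp5*), where 13.0% of all genes were, and 0 were downregulated, where 9.87% were. Without the fold limit 6 members passed in WT and 7 in KO MSCs, against 64.4% and 72.9% of all genes, shares of the same order as those of the members. The interaction, which tests whether the effect of induction differed between the genotypes, called 3 members (*Igf1*, *Igfbp3* and *Igfbp5*) with a larger effect in KO MSCs, where 2.76% of all genes were called in that direction, and 0 in the other, where 3.42% were. Without the fold limit 6 members passed it, against 39.4% of all genes.

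**Figure D2:**
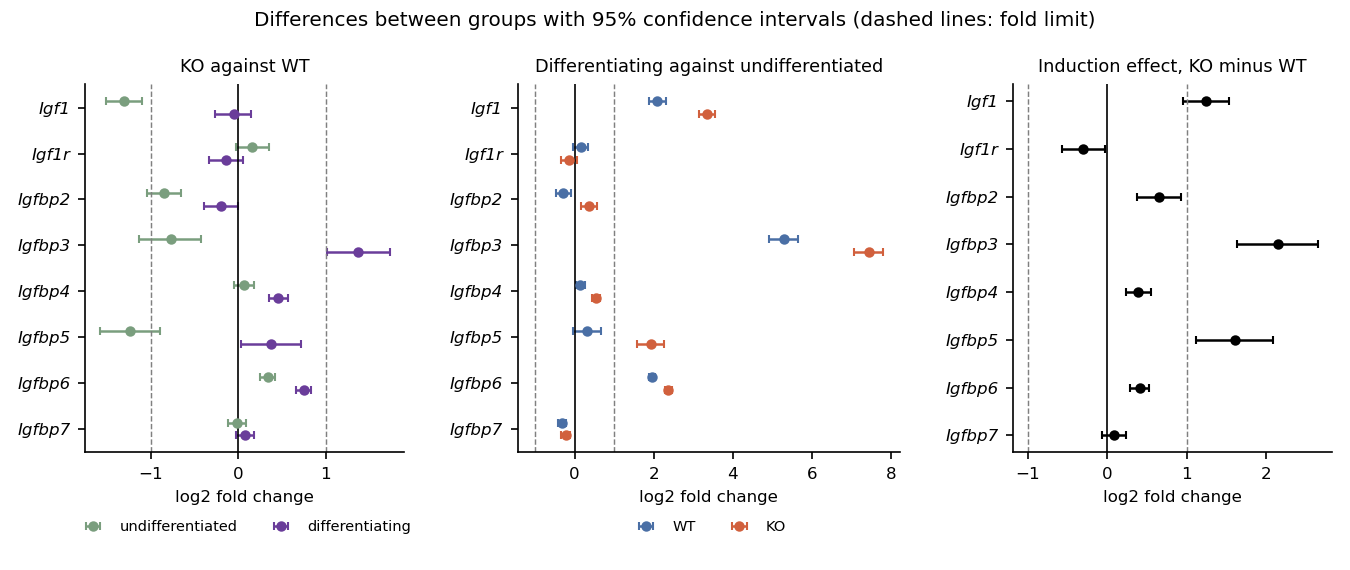
Log2 fold changes of the 8 genes from limma (points) with 95% confidence intervals (bars) on horizontal axes in log2 units; dashed lines mark the fold limit of 1 in each direction. The left panel gives KO against WT in undifferentiated (green) and differentiating (purple) MSCs, the middle panel the effect of induction in WT (blue) and KO (orange) MSCs, and the right panel the KO effect of induction minus the WT effect, which reaches 2.15 for *Igfbp3*.

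The ligand gene *Igf1* lies on chr10:87858265-87937042 (mm10, plus strand), has 8 annotated transcripts and overlaps the antisense gene *Igf1os*. Its level was 1.77 and 1.70 RPKM in undifferentiated WT MSCs and 0.698 and 0.589 RPKM in undifferentiated KO MSCs. After 3 days of induction it was 7.92 and 7.50 RPKM in WT and 7.21 and 7.65 RPKM in KO MSCs. Undifferentiated KO libraries were thus the lowest and did not overlap the WT libraries of the same state, while the differentiating groups overlapped. *Igf1* was lower in KO than in WT undifferentiated MSCs, with a mean ratio of 0.371 and a log2 fold change of -1.30 ± 0.08 (SE, n = 2 libraries a group, adjusted p = 0.00048 in limma). With a pseudocount of 1 this change was -0.73 (adjusted p = 0.00073), short of the fold limit. In differentiating MSCs the difference was -0.05 with a 95% confidence interval of -0.26 to 0.15 (adjusted p = 0.65). Induction raised *Igf1* 4.45-fold in WT MSCs (log2 fold change 2.09, 95% confidence interval 1.89 to 2.30, adjusted p = 6.9e-06) and 11.5-fold in KO MSCs (3.34, 3.14 to 3.55, adjusted p = 8.0e-07). These effects differed by 1.25 ± 0.12 (SE, adjusted p = 0.0012), so that the KO cells began at a lower level and ended with 1 library within the range of the WT libraries and 1 below it. In bulk RNA such as this, fewer cells of a type and less RNA per cell cannot be told apart.

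The receptor gene *Igf1r*, on chr7:67952827-68233668 (plus strand), encodes the receptor tyrosine kinase for IGF1. It was at 12.8 and 11.9 RPKM in undifferentiated WT libraries, 13.7 and 13.9 RPKM in undifferentiated KO, 14.2 and 13.4 RPKM in differentiating WT and 11.6 and 13.6 RPKM in differentiating KO MSCs. The lowest and the highest library differed little, and the ranges of the groups overlapped in part. None of the 5 tests of *Igf1r* passed, with log2 fold changes of 0.16 and -0.14 for KO against WT and of 0.16 and -0.14 for induction in WT and KO MSCs. The 95% confidence intervals of these changes reached at most 0.35 and at least -0.33. The interaction was -0.30 (95% confidence interval -0.57 to -0.03, adjusted p = 0.078). Without replicate 2 of differentiating KO MSCs it was -0.41 (adjusted p = 0.018), the difference of KO against WT in differentiating MSCs was -0.25 (adjusted p = 0.040) and the change on induction in KO MSCs was -0.25 (adjusted p = 0.017). The latter also passed with median centring (-0.22, adjusted p = 0.047), and the change in WT MSCs passed without either library of differentiating KO MSCs (0.16, adjusted p = 0.035). The ratio of *Igf1* to *Igf1r* RPKM was 0.140 ± 0.003 (SD, n = 2) in undifferentiated WT, 0.0466 ± 0.0060 in undifferentiated KO, 0.558 ± 0.001 in differentiating WT and 0.592 ± 0.039 in differentiating KO MSCs, and this ratio followed the ligand.

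*Igfbp3*, on chr11:7206086-7213923 (minus strand), encodes the main carrier of IGFs in serum, which is also made by connective tissue cells. It was at 1.93 and 1.94 RPKM in undifferentiated WT MSCs and at 1.22 and 0.972 RPKM in undifferentiated KO MSCs. In differentiating MSCs it was at 85.9 and 72.3 RPKM in WT and at 184 and 227 RPKM in KO. All 4 groups were separate, with undifferentiated KO MSCs lowest and differentiating KO MSCs highest. Induction raised *Igfbp3* 40.9-fold in WT (log2 fold change 5.28 ± 0.15, adjusted p = 2.2e-06) and 187-fold in KO MSCs (7.43 ± 0.15, adjusted p = 3.9e-07), the largest change of a member in both genotypes. The effect in KO exceeded that in WT by 2.15 ± 0.21 (adjusted p = 0.0013). In differentiating MSCs *Igfbp3* was 2.60-fold higher in KO than in WT (1.37, 95% confidence interval 1.02 to 1.73, adjusted p = 0.0016). In undifferentiated MSCs it was lower in KO (log2 fold change -0.77, adjusted p = 0.012), and this passed with all libraries but not without replicate 1 (adjusted p = 0.059) or 2 (0.068) of undifferentiated WT, or replicate 2 of undifferentiated KO (0.067). The neighbouring gene *Igfbp1*, whose product is the acutely regulated IGFBP of liver, lies 3539 bp away on the plus strand. It was listed at 0 in 7 libraries and at 0.0148 RPKM in 1 library of differentiating WT MSCs, below the 0.0338 to 0.0472 RPKM that 3 reads would give.

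*Igfbp6*, on chr15:102144362-102149511 (plus strand), encodes the binding protein with a preference for IGF2. Its levels were 109 and 113 RPKM in undifferentiated WT libraries, 141 and 139 RPKM in undifferentiated KO, 432 and 432 RPKM in differentiating WT and 717 and 733 RPKM in differentiating KO MSCs. The replicates lay close together and the 4 groups were separate, with KO above WT in both states. *Igfbp6* rose 3.90-fold on induction in WT MSCs (log2 fold change 1.96 ± 0.03, adjusted p = 6.1e-07) and 5.18-fold in KO MSCs (2.37 ± 0.03, adjusted p = 1.8e-07). KO exceeded WT by 0.34 (adjusted p = 0.0017) in undifferentiated and by 0.75 (adjusted p = 0.00029) in differentiating MSCs, both under the fold limit. The effect of induction was 0.41 ± 0.05 larger in KO (adjusted p = 0.0020). In differentiating KO MSCs *Igfbp6* was the most abundant of the members.

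The promoters of *Igfbp3* and *Igfbp6*, the binding protein genes that were upregulated DEGs on induction in both genotypes, differ in their CpG dinucleotides, the sites of DNA methylation. They are shown as the 250 bases before the RefSeq start site (GRCm38.p6, the assembly of mm10), 5′ to 3′ on the strand of the gene, with each CpG in capitals. The window lies at chr11:7213924-7214173 (minus strand) for *Igfbp3* and at chr15:102143936-102144185 (plus strand) for *Igfbp6*, whose RefSeq start is upstream of the start in the GENCODE annotation used for its position above.
Igfbp3: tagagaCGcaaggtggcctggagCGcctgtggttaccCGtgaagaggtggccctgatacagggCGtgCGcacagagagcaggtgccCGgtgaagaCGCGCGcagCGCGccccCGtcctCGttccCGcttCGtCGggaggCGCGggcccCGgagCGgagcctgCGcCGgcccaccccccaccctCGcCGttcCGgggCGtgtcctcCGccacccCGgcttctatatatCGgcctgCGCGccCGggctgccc
Igfbp6: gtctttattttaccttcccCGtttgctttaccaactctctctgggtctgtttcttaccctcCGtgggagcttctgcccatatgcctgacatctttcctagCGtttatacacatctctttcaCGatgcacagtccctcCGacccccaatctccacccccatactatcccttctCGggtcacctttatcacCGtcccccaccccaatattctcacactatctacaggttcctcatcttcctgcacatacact
The window of *Igfbp3* held 32 CpGs and that of *Igfbp6* held 7. The median over 32851 RefSeq promoters was 6, with quartiles of 2 and 16, and 96.0% of them held as few CpGs as *Igfbp3* or fewer. All 8 members had a promoter in the RefSeq table. *Igf1r* held 42 CpGs, *Igfbp7* 26, *Igfbp4* 22 and *Igfbp5* 10, while *Igf1* held 5 and the windows of *Igfbp2*, which has 2 annotated starts, held 14 and 11. The windows of *Igf1*, *Igfbp5* and the second start of *Igfbp2* lie at least in part over GENCODE exons of the same gene, and the *Igf1* window (chr10:87860861-87861110) is inside the gene span given above. The letters AGAACA, the half-site of the glucocorticoid receptor, were searched on both strands, and neither window holds them; among the members they occurred in 1 window of *Igfbp2*, and 16.1% of all promoters held them. The TATA box TATAAA, searched on the gene's strand in the last 60 bases, occurred in the window of *Igfbp4*, and in 2.87% of all promoters.

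*Igfbp5* and *Igfbp2* are neighbours on chromosome 1, tail to tail and 5457 bp apart, with *Igfbp2* at chr1:72824503-72852474 (plus strand) and *Igfbp5* at chr1:72857932-72874884 (minus strand). IGFBP5 is a binding protein of bone matrix. Its gene was at 35.0 and 30.8 RPKM in undifferentiated WT MSCs and at 13.9 and 13.9 RPKM in undifferentiated KO MSCs. Differentiating WT libraries were at 44.9 and 37.2 RPKM and differentiating KO libraries at 46.9 and 59.8 RPKM. Undifferentiated KO MSCs stood apart below the other groups, whose ranges lay close together. *Igfbp5* was lower in KO than in WT undifferentiated MSCs (ratio 0.422, log2 fold change -1.24 ± 0.14, adjusted p = 0.0024). On induction it rose 3.84-fold in KO MSCs (1.92 ± 0.14, adjusted p = 4.3e-05), and in WT MSCs the change was 0.32 (95% confidence interval -0.03 to 0.66, adjusted p = 0.094). The interaction was 1.61 ± 0.20 (adjusted p = 0.0024). In differentiating MSCs KO against WT was 0.37 (adjusted p = 0.080), and 0.55 without replicate 1 of differentiating KO (adjusted p = 0.033).

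*Igfbp2* encodes a binding protein that is abundant in fetal tissues and serum. Its levels were 352 and 372 RPKM in undifferentiated WT libraries, 203 and 199.9 RPKM in undifferentiated KO, 287 and 307 RPKM in differentiating WT and 280.4 and 239 RPKM in differentiating KO MSCs. KO libraries were below WT libraries in both states, far below in undifferentiated cells and just below after induction. The log2 fold change of KO against WT was -0.85 ± 0.08 (adjusted p = 0.0014) in undifferentiated and -0.20 (95% confidence interval -0.39 to 0.00, adjusted p = 0.10) in differentiating MSCs. The latter was -0.31 without replicate 1 of differentiating KO MSCs (adjusted p = 0.015). Induction lowered *Igfbp2* in WT (log2 fold change -0.29, adjusted p = 0.021) and raised it in KO MSCs (0.36, adjusted p = 0.0068), and the interaction was 0.65 ± 0.11 (adjusted p = 0.0072). The fall in WT did not pass without replicate 1 (-0.33, adjusted p = 0.051) or 2 (-0.25, 0.11) of undifferentiated WT or replicate 1 of differentiating WT MSCs (-0.24, 0.11). The ratio of *Igfbp2* to *Igfbp5* RPKM was 11.1 ± 1.4 (SD, n = 2) in undifferentiated WT, 14.5 ± 0.1 in undifferentiated KO, 7.32 ± 1.31 in differentiating WT and 4.99 ± 1.39 in differentiating KO MSCs, so these neighbours were not kept in a fixed proportion.

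*Igfbp4* and *Igfbp7* were the most abundant members before induction. *Igfbp4*, on chr11:99041244-99054392 (plus strand), encodes a binding protein that inhibits IGF action and is the main substrate of the protease PAPP-A. It was at 454 and 455 RPKM in undifferentiated WT libraries, 482 and 470.2 RPKM in undifferentiated KO, 495 and 510.3 RPKM in differentiating WT and 671 and 713 RPKM in differentiating KO MSCs. Differentiating KO libraries were the highest and the other groups lay close together. Induction raised *Igfbp4* by 0.54 ± 0.05 in KO MSCs on the log2 scale (adjusted p = 8.1e-05). In WT MSCs the change was 0.15 (adjusted p = 0.031), which did not pass under 8 of 17 alternatives, among them median centring (0.04, adjusted p = 0.43). KO against WT was 0.46 ± 0.05 in differentiating (adjusted p = 0.0014) and 0.07 in undifferentiated MSCs (95% confidence interval -0.05 to 0.18, adjusted p = 0.31). The interaction was 0.39 (adjusted p = 0.0058).

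*Igfbp7*, on chr5:77349240-77408041 (minus strand), encodes a secreted, IGFBP-related protein of the vessel and tissue matrix, and its span overlaps *Polr2b* and *Gm34648* on the other strand. It was at 552 and 574 RPKM in undifferentiated WT libraries, 554 and 562 RPKM in undifferentiated KO, 451 and 453 RPKM in differentiating WT and 489 and 466 RPKM in differentiating KO MSCs. Undifferentiated libraries of both genotypes overlapped and were above all differentiating libraries. On induction *Igfbp7* fell by 0.32 on the log2 scale in WT (adjusted p = 0.0011) and fell by 0.22 in KO MSCs (adjusted p = 0.0036). KO against WT was -0.01 (95% confidence interval -0.12 to 0.09, adjusted p = 0.87) and 0.08 (-0.03 to 0.18, adjusted p = 0.19) in undifferentiated and differentiating MSCs, and the interaction was 0.09 (adjusted p = 0.28).

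The makeup of the binding protein transcripts changed with induction. Summed over the 6 genes, the level was 1525 ± 29 RPKM (SD, n = 2) in undifferentiated WT, 1390.0 ± 6.4 RPKM in undifferentiated KO, 1804 ± 11 RPKM in differentiating WT and 2414 ± 36 RPKM in differentiating KO MSCs. *Igfbp7* took the largest share of the sum in undifferentiated MSCs, 36.9% in WT and 40.1% in KO, and 25.1% and 19.8% after induction. *Igfbp6* went from 7.27% to 24.0% in WT and from 10.1% to 30.0% in KO MSCs, and *Igfbp3* from 0.127% to 4.39% and from 0.0789% to 8.51%. The share of *Igfbp4* stayed between 27.9% and 34.2% over the groups. *Igfbp2* held 23.7% in undifferentiated WT, 14.5% in undifferentiated KO, 16.5% in differentiating WT and 10.8% in differentiating KO MSCs. *Igfbp5* took 0.998% of the sum in undifferentiated KO and 2.16% to 2.28% in the other groups. In every library *Igf1* was far below the sum, which was 881 ± 43 times the *Igf1* level in undifferentiated WT, 2175 ± 250.4 times in undifferentiated KO, 234 ± 11 times in differentiating WT and 325 ± 9 times in differentiating KO MSCs. These are ratios of transcripts, not of proteins, and they are given without a test.

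**Figure D3:**
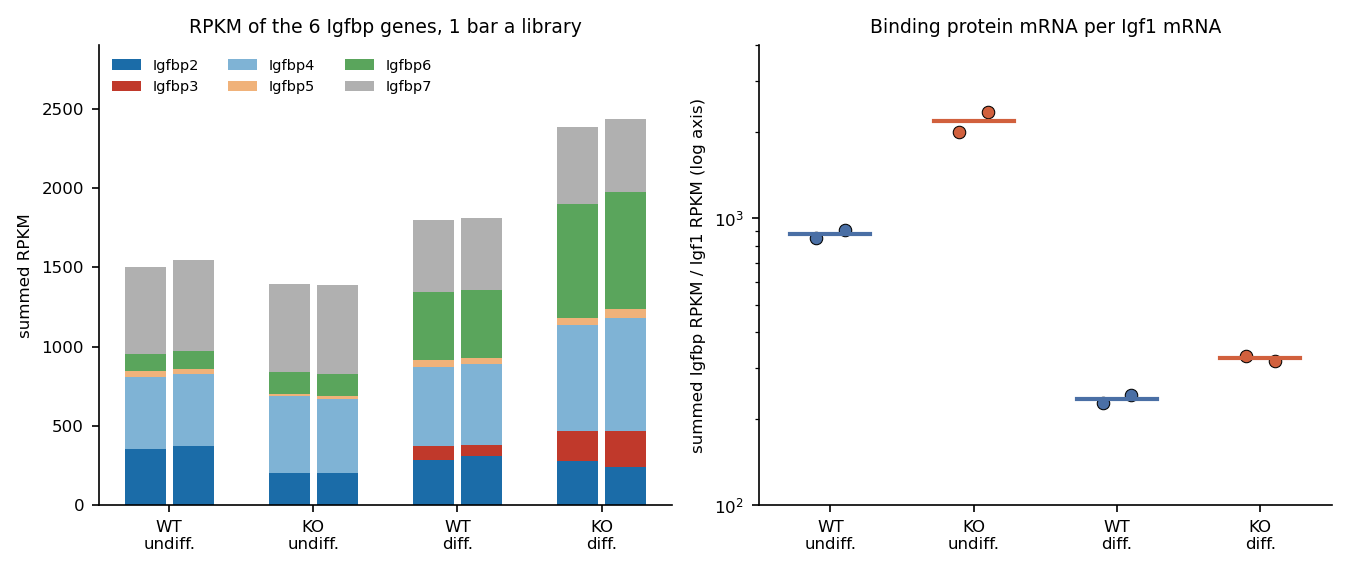
Left, RPKM of the 6 binding protein genes stacked for each library (vertical axis from 0), with the groups in the order undifferentiated WT, undifferentiated KO, differentiating WT and differentiating KO; right, their sum divided by the *Igf1* RPKM on a log axis, with a point for each library and a bar for each group mean. *Igfbp6* (green) and *Igfbp3* (red) account for most of the added height after induction, and the ratio is highest in undifferentiated KO MSCs, at 1998 and 2352.

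Other ligands and receptors of the family were examined as a list of 6 genes, of which 3 were expressed enough to be tested, with median log2 fold changes on induction of 0.50 in WT and 0.82 in KO MSCs. *Igf2*, the second IGF, was at 0.571 and 0.681 RPKM in undifferentiated WT libraries, at 0.459 and 0.577 RPKM in undifferentiated KO libraries and at 6.71 and 5.79 RPKM in differentiating WT and 7.54 and 10.3 RPKM in differentiating KO MSCs. Both ligand genes were thus low before and higher after induction, and *Igf2* was the only DEG of the list, upregulated by 3.13 ± 0.18 in WT (adjusted p = 3.0e-05) and by 3.86 ± 0.18 in KO MSCs (adjusted p = 7.2e-06). KO against WT did not pass for *Igf2* in undifferentiated (-0.24, adjusted p = 0.36) or differentiating MSCs (0.49, adjusted p = 0.076). *Igf2r*, the receptor that takes IGF2 up for degradation and was named after its values were seen, was lower in KO than in WT undifferentiated MSCs (log2 fold change -0.43, adjusted p = 0.0030), with means of 40.9 and 55.3 RPKM. On induction it fell by 0.60 in WT (adjusted p = 0.00016) and fell by 0.16 in KO MSCs (adjusted p = 0.030). The insulin genes *Ins1* and *Ins2* were listed at 0 in all libraries.

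Among 14 other genes of IGF-binding and IGFBP-domain proteins, 11 were tested. Induction upregulated 4 and downregulated 2 of them as DEGs in each genotype. Of all genes 9.69% were upregulated and 4.63% downregulated DEGs in WT, and 13.0% and 9.87% in KO MSCs. The median log2 fold change of the list was 0.06 in WT and 0.85 in KO MSCs, against 0.00 over all tested genes in each genotype. *Nov*, a CCN family matrix protein, went from means of 4.21 to 58.0 RPKM in WT and from 2.35 to 65.0 RPKM in KO MSCs (3.75 and 4.73, adjusted p = 6.5e-07 and 2.0e-07). *Ctgf*, another CCN protein and a target of TGFβ and YAP signalling, was downregulated on induction in WT (log2 fold change -2.07, adjusted p = 0.00011) and KO MSCs (-3.60, adjusted p = 6.7e-06), and it was lower in KO than in WT differentiating MSCs (-1.64, adjusted p = 0.0015). *Wisp1*, a Wnt-induced CCN protein, was downregulated by induction in both genotypes and was lower in KO than in WT in both states (-1.16, adjusted p = 0.00063, and -1.03, adjusted p = 0.00093). The latter was within the fold limit without replicate 2 of differentiating WT or KO MSCs, and over the alternatives it was -1.16 to -0.90. *Esm1*, a secreted proteoglycan, was higher in KO than in WT in both states, by 1.37 (adjusted p = 0.0029) and 1.24 (adjusted p = 0.0031), at levels of 3.11 RPKM or less. With a pseudocount of 1 neither difference reached the fold limit. In KO against WT, 1 gene of the list was an upregulated and 1 a downregulated DEG in undifferentiated MSCs, where 0.613% and 1.09% of all genes were. In differentiating MSCs 1 was upregulated and 2 were downregulated, where 1.36% and 1.95% of all genes were.

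IGFBP proteases and their inhibitors made a list of 10 genes, all tested. In WT MSCs induction upregulated 4 and downregulated 2 of them as DEGs, where 9.69% and 4.63% of all genes were. In KO MSCs these counts were 3 and 1, where 13.0% and 9.87% of all genes were. The median log2 fold change of the list was 0.36 in WT and 0.21 in KO MSCs. *Pappa2*, a metalloproteinase that cuts IGFBP3 and IGFBP5, rose from means of 0.792 to 5.13 RPKM in WT and from 0.332 to 3.72 RPKM in KO MSCs (2.55 and 3.14, adjusted p = 4.2e-06 and 1.2e-06). It was lower in KO than in WT undifferentiated (-1.05, adjusted p = 0.00096) and differentiating MSCs (-0.46, adjusted p = 0.0098). The former was -0.43 with a pseudocount of 1. *Stc1*, whose product inhibits these proteases, was 1.54 higher in KO than in WT undifferentiated MSCs (adjusted p = 0.00032, means of 4.13 and 1.36 RPKM) and fell on induction to 0.269 RPKM or less in all libraries. The collagenase gene *Mmp13* rose by 2.33 in WT and 3.06 in KO MSCs (adjusted p = 7.7e-06 and 1.7e-06) and was lower in undifferentiated KO than WT MSCs (-1.12, adjusted p = 0.0011), with -0.98 without replicate 1 of undifferentiated KO. *Mmp3*, another matrix metalloproteinase, was higher in KO than in WT differentiating MSCs by 1.39 (adjusted p = 0.0016), at levels of 1.38 RPKM or less, and by 0.69 with a pseudocount of 1, short of the fold limit. *Pappa*, the protease of IGFBP4, was named after its values were seen. It was at means of 45.4 RPKM in undifferentiated WT, 27.2 RPKM in undifferentiated KO, 26.3 RPKM in differentiating WT and 19.0 RPKM in differentiating KO MSCs, and it was lower in KO than in WT in both states (-0.74, adjusted p = 0.0013, and -0.47, adjusted p = 0.0039).

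Downstream of the receptor, counts of DEGs are read against all tested genes, of which 1.70% and 3.30% were DEGs between the genotypes in undifferentiated and differentiating MSCs, and 14.3% and 22.9% on induction in WT and KO MSCs. Of 11 tested substrates and adaptors, 0 were DEGs in either genotype comparison. Without the fold limit 1 passed upward and 3 downward between the genotypes in undifferentiated MSCs, and 3 and 3 in differentiating MSCs. Of all genes 32.2% and 40.7% passed in either direction. On induction 1 of the 11 was a DEG in KO MSCs, where the median log2 fold change of the list was 0.22. This was *Irs2*, an insulin receptor substrate, upregulated by 1.54 in KO (adjusted p = 3.0e-05), while its rise in WT was 0.90 (adjusted p = 0.00052) and the interaction was 0.64 (adjusted p = 0.018). Of 25 genes of the PI3K, AKT and mTOR branch, 0 were DEGs between the genotypes in either state. Without the fold limit 12 of the 25 passed in undifferentiated MSCs, where 32.2% of all genes did, and 13 in differentiating MSCs, where 40.7% did. On induction 3 were upregulated DEGs in WT, and 2 were upregulated and 1 downregulated in KO MSCs, with medians of 0.05 and 0.13. *Pik3r1*, the regulatory subunit of PI3K, rose by 1.57 in WT and 2.15 in KO MSCs (adjusted p = 2.6e-06 and 4.9e-07), from means of 21.5 and 17.8 RPKM to 64.0 and 79.2 RPKM. *Foxo3*, a transcription factor that AKT keeps out of the nucleus, rose by 1.29 and 1.69 (adjusted p = 6.2e-06 and 1.4e-06). *Foxo1*, of the same family, rose by 1.11 in WT (adjusted p = 0.0021) and 0.95 in KO MSCs (adjusted p = 0.0031), and quantile normalization or a pseudocount of 1 put the former within the fold limit. The catalytic subunit gene *Pik3cb* fell by 0.79 in WT (adjusted p = 0.00010) and fell by 1.57 in KO MSCs (adjusted p = 3.9e-06). In the growth hormone axis, the main stimulus of IGF1 synthesis in liver, 1 of 6 genes was a DEG on induction in each genotype, and the medians were 0.17 in WT and 0.11 in KO MSCs. That gene, the growth hormone receptor *Ghr*, rose by 1.25 in WT (adjusted p = 1.4e-05) and 1.86 in KO MSCs (adjusted p = 1.9e-06). Between the genotypes 0 of the 6 were DEGs. Without the fold limit 2 passed upward and 1 downward in undifferentiated MSCs, and 4 upward and 0 downward in differentiating MSCs, beside the 32.2% and 40.7% of all genes above.

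**Figure D4:**
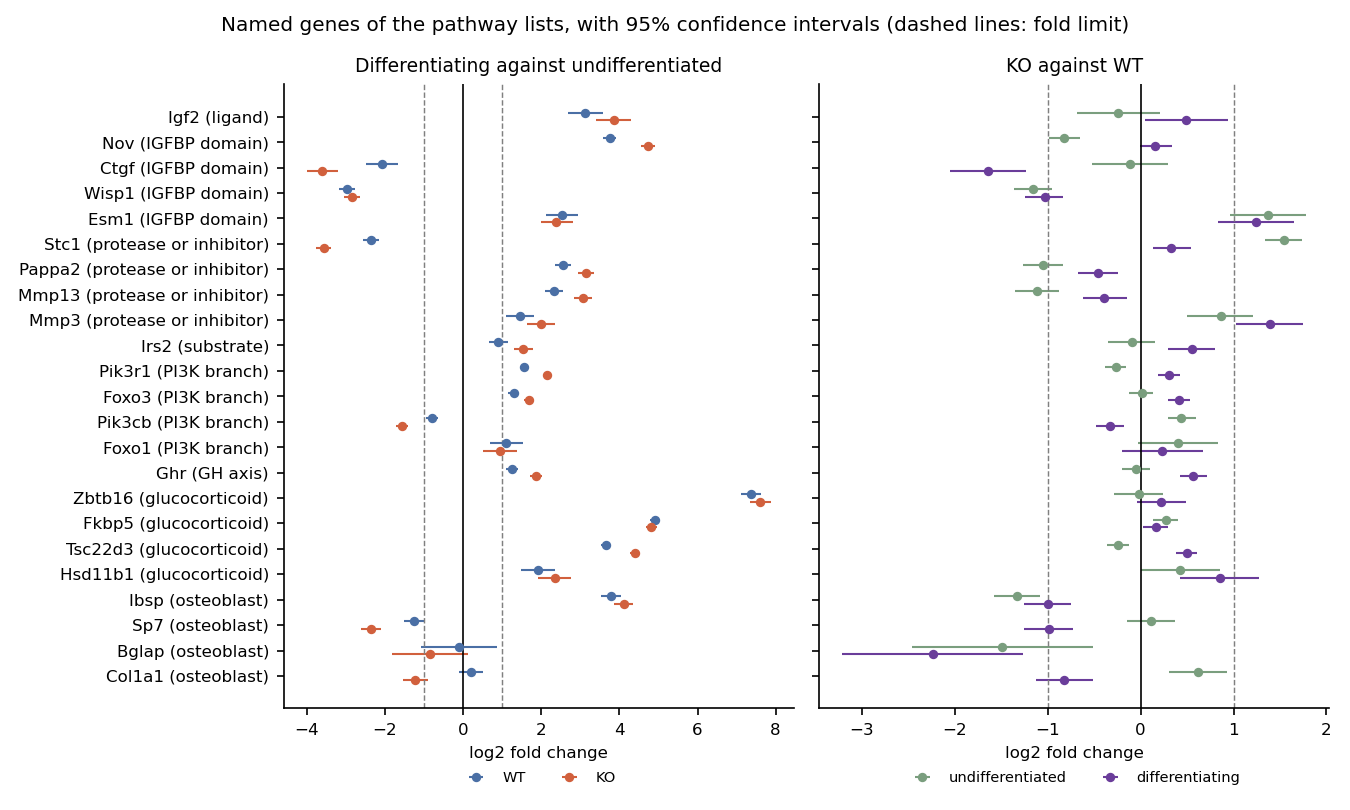
Log2 fold changes from limma (points, horizontal axes) with 95% confidence intervals (bars) of the 23 genes named from the pathway lists, the list given in brackets; the left panel shows the effect of induction in WT (blue) and KO (orange) MSCs, the right panel KO against WT in undifferentiated (green) and differentiating (purple) MSCs, and dashed lines mark the fold limit. *Zbtb16* and *Fkbp5* show the largest rises on induction in both genotypes, and *Ctgf*, *Stc1* and *Wisp1* the largest falls.

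Genes known to respond to glucocorticoids rose with *Igf1*, *Igfbp3* and *Igfbp6* in the medium with dexamethasone. All 9 genes of this list passed the test upward in both genotypes, where 4855 of all 15342 tested genes did in WT and 5577 in KO MSCs. Upregulated DEGs were 6 in WT and 7 in KO MSCs, where 9.69% and 13.0% of all genes were. The median log2 fold changes of the list were 1.73 and 1.72. *Fkbp5*, a co-chaperone of the glucocorticoid receptor, went from 3.20 and 3.08 RPKM to 98.2 and 97.5 RPKM in WT and from 4.01 and 3.60 RPKM to 112 and 108 RPKM in KO MSCs (4.92 and 4.82, adjusted p = 2.7e-07 and 9.6e-08). Its induction did not differ between the genotypes past the test (interaction -0.10, adjusted p = 0.35). *Tsc22d3*, which encodes GILZ, rose by 3.65 in WT and 4.39 in KO MSCs (adjusted p = 3.0e-07 and 7.5e-08), with an interaction of 0.74 (adjusted p = 0.0011). *Zbtb16*, a transcription factor, rose from 0.0166 RPKM or less to between 17.5 and 23.0 RPKM (7.36 and 7.61, adjusted p = 4.3e-07 and 1.8e-07). *Hsd11b1*, the enzyme that makes active glucocorticoid, rose by 1.91 and 2.34 (adjusted p = 0.00019 and 4.6e-05). In the genotype comparisons 0 genes of the list were DEGs. Without the fold limit 1 passed upward and 1 downward in undifferentiated MSCs, and 5 upward and 0 downward in differentiating MSCs. The interaction passed upward for 4 genes and downward for 0. The shares of all genes passing in either direction were 32.2%, 40.7% and 39.4% in the same order. The part of dexamethasone in the changes of the members was not tested.

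Of 9 osteoblast markers, 1 was an upregulated and 1 a downregulated DEG on induction in WT MSCs, where 9.69% and 4.63% of all genes were. In KO MSCs these counts were 1 and 2, where 13.0% and 9.87% of all genes were. The medians of the list were 0.21 in WT and -0.29 in KO MSCs. In KO against WT differentiating MSCs, 3514 of all 15342 tested genes passed downward and 2737 upward. Of the 9 markers 7 passed downward and 0 upward. The median log2 fold change there was -0.83, and 1 of them was a DEG (*Bglap*). *Ibsp*, the bone sialoprotein gene, rose by 3.78 in WT (adjusted p = 2.0e-06) and 4.11 in KO MSCs (adjusted p = 7.6e-07), and it was lower in undifferentiated KO than WT MSCs (-1.33, adjusted p = 0.00073). Its means in differentiating MSCs were 695 RPKM in WT and 350 RPKM in KO. *Sp7*, the osteoblast transcription factor osterix, fell by 1.25 in WT (adjusted p = 0.00014) and fell by 2.36 in KO MSCs (adjusted p = 6.0e-06). *Col1a1*, the main bone collagen, fell by 1.22 in KO MSCs (adjusted p = 0.00021), and its change in WT was 0.21 (adjusted p = 0.18). *Bglap*, the osteocalcin gene, was at 0.708 RPKM or less in every library and was lower in KO than in WT differentiating MSCs (-2.23, adjusted p = 0.0076). This difference was -4.20 to -0.55 over the alternatives and within the fold limit with a pseudocount of 1. The difference in undifferentiated MSCs, -1.49 (adjusted p = 0.035), was lost under 9 of 16 alternatives.

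The members differed in how much of the transcriptome shared their pattern. On log2(RPKM + 0.1) over the 8 libraries, among 11892 genes that averaged 1 RPKM or more and had no 0, the genes most like *Igf1* by Pearson's r were *Hnmt* (0.999), *Enox2* (0.998) and *Nkain4* (0.998). Those for *Igfbp3* were *Sesn1*, *Tmem106b* and *Mettl7a1*, and for *Igfbp6* *Cyb5a*, *Adam23* and *Pcnxl4*, all with r of at least 0.999. *Igfbp5* was most like *Mkrn1* (0.996), *Marcks* (0.993) and *Rnf146* (0.992), *Igfbp2* like *P4ha2* (0.991), *Ensa* (0.990) and *Aga* (0.988), and *Igfbp4* like *Ubxn2b*, *Usp11* and *Arrdc3* (0.991 each). *Igfbp7* was most like *Morn4* (0.997), *1700052K11Rik* (0.996) and *Aftph* (0.994), and *Igf1r* like *Nup214* (0.967), *Ncoa6* (0.948) and *Trrap* (0.947). With 4 groups such values come easily: 1806 genes had r above 0.95 with *Igfbp3*, 1541 with *Igfbp6* and 931 with *Igf1*, but 33 with *Igfbp2* and 1 with *Igf1r*. Between members r was 0.98 for *Igfbp3* and *Igfbp6*, 0.96 for *Igf1* and *Igfbp3*, -0.92 for *Igfbp3* and *Igfbp7* and -0.04 for *Igf1r* and *Igfbp3*. These are descriptions over libraries that share their groups.

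Markers of other cells moved along the same comparisons. The sum of 10 macrophage and leukocyte markers was 20.5 to 21.4 RPKM in undifferentiated WT, 10.0 to 11.0 RPKM in undifferentiated KO, 32.8 to 37.4 RPKM in differentiating WT and 14.2 to 15.2 RPKM in differentiating KO MSCs. Of these, *Aif1* was at 0 in undifferentiated KO MSCs, and *Adgre1*, which encodes F4/80, was at 0.377 RPKM or less in every library. The list did not move as one. Most of the lower sum in undifferentiated KO MSCs was *Lyz2* (log2 fold change -1.96, adjusted p = 0.00019). In KO against WT undifferentiated MSCs, 2692 of all 15342 tested genes passed downward and 2251 upward. Of the 8 tested markers 4 passed downward and 2 upward. The latter were *Cd14*, at means of 2.39 RPKM in KO and 1.35 RPKM in WT (0.78, adjusted p = 0.0046), and *Csf1r*, at 1.89 and 1.48 RPKM (0.34, adjusted p = 0.032). In differentiating MSCs 7 of the 8 passed downward in KO against WT and 1 upward, where 3514 and 2737 of all tested genes did. The 6 adipogenic markers summed to 57.1 to 67.7 RPKM in undifferentiated and 419.9 to 467 RPKM in differentiating libraries. *Adipoq*, a gene of mature adipocytes, was at means of 0.0581 and 0.0294 RPKM before and 7.71 and 11.6 RPKM after induction in WT and KO MSCs. Endothelial markers (7 genes) summed to 0.891 RPKM or less in undifferentiated libraries, to 2.73 to 3.23 RPKM in differentiating WT and to 4.25 to 4.86 RPKM in differentiating KO MSCs, and *Cldn5* was at 0 in both differentiating groups. Most of the difference between the differentiating groups was *Tek*, an angiopoietin receptor, at a mean of 2.14 RPKM in WT against 3.87 RPKM in KO (0.83, adjusted p = 0.0073). *Kdr*, the main VEGF receptor, was at 0.575 and 0.367 RPKM and *Pecam1* at 0.0804 and 0.0493 RPKM. The 7 proliferation genes summed to 219.8 to 220.3 RPKM in undifferentiated WT, 285 to 289 RPKM in undifferentiated KO, 127 to 137 RPKM in differentiating WT and 65.2 to 82.5 RPKM in differentiating KO MSCs. The sum was thus highest in undifferentiated KO and lowest in differentiating KO MSCs, the reverse of *Igfbp3* and *Igfbp5*. The part of these cells, or of growth rate, in the changes of the members was not tested.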

How the data were processed

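RNA was measured in 8 libraries, 2 a group, and the titles of the samples tied each column to a library and group. The authors removed ribosomal RNA, prepared strand-specific libraries, aligned the reads to mm10 with TopHat2 2.1.0 and computed values with Cuffdiff of Cufflinks 2.2.1, per the submitters' processing notes. The deposited values are RPKM of single libraries, which the authors did not pool. RPKM gives no depth directly. From the steps between low values of 1093 genes, depth came to 48.0 to 66.9 M scaled reads a library. Of 3977 low values, 72.7% were whole within 0.05 reads. Depth was itself chosen to bring these values near whole numbers, so the 10% of unfitted values is not the chance level here. Since not all values were whole, reads were not recovered and no count model was used. The floors that 3 reads give cover counting error only.

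The 15342 genes whose RPKM averaged 0.1 or more were tested on log2(RPKM + 0.1) in limma 3.58.1 under R 4.3.3. The model had 4 group means over the 8 libraries and let the variance follow the expression level, and the groups share an estimate of the spread. P-values were adjusted over all tested genes by the Benjamini-Hochberg method. The limits for a DEG follow the study's methods. The fit was tested on simulated data. Shares, ratios, correlations and figures were made with numpy 2.4.6, pandas 2.3.3 and matplotlib 3.10.9 under Python 3.11.15. Positions come from the GENCODE annotation of mm10 and promoters from RefSeq.

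The members and gene lists were chosen with earlier results of these data known. All 8 members are named. Of each pathway list the DEGs with the largest log2 fold change in a comparison were named, up to 4 a list. For each member the 3 genes with the highest Pearson's r over the libraries were named, and *Igfbp1* was named as the neighbour of *Igfbp3*. Markers are given as sums, with their defining genes. Replicates were compared over genes with a single annotated transcript and enough estimated reads in the pair, 843 to 909 genes a group. Over these genes they differed beyond counting error. Over all genes the replicates of a group shared 0 nonzero values.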

Additional observations from a re-analysis of the deposited data

Results flagged for a closer look

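The effect of osteogenic induction differed between KO and WT MSCs for 6 of the 8 members, by the interaction term of limma at an adjusted p under 0.05, where 39.4% of all tested genes did. The KO effect minus the WT effect, on the log2 scale, was 2.15 for *Igfbp3* (95% confidence interval 1.64 to 2.65, adjusted p = 0.0013), 1.61 for *Igfbp5* (1.12 to 2.09, adjusted p = 0.0024) and 1.25 for *Igf1* (0.96 to 1.54, adjusted p = 0.0012). It was 0.65 for *Igfbp2*, the member that fell in WT and rose in KO MSCs, 0.41 for *Igfbp6* and 0.39 for *Igfbp4*. For *Igfbp3* the KO libraries began below the WT libraries and ended above them. For *Igf1* they began below and ended overlapping the WT libraries. For *Igfbp5* they began below and ended at 46.9 and 59.8 RPKM against 44.9 and 37.2 RPKM in WT, which fell short of the threshold (adjusted p = 0.080). With 2 libraries in each group, no sample could be tested for standing apart from its group.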

How the results depend on the processing

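Over 17 alternatives, 668 of 672 values of the members kept their direction and their side of the DEG limits. With a pseudocount of 1, *Igf1* in undifferentiated KO against WT MSCs was -0.73 and its interaction 0.69, both within the fold limit, so that 1 member was a DEG in undifferentiated KO against WT MSCs in place of 2. A larger pseudocount shrinks the change of a low gene by construction. Leaving out libraries one at a time gave -0.04 to 0.02 for *Igfbp7* in undifferentiated KO against WT MSCs, which was not called. This difference was above 0 without replicate 2 of undifferentiated WT, at 0.02, and with quantile normalization, at 0.05, and the cause was not tested. Without the fold limit the members called were 5 and 3 for KO against WT in undifferentiated and differentiating MSCs, 6 and 7 for induction in WT and KO, and 6 for the interaction. With the replicate number as a block (replicate block) the counts of DEGs were 2, 1, 3, 4 and 3 in the same order, as without it, and without the fold limit 5 in place of 6 members passed on induction in WT, since *Igfbp4* did not (0.15, adjusted p = 0.060). Same-numbered libraries of different groups did not deviate together (correlations of their deviations -0.0924 to 0.0304), so no pairing by number was seen in the values. Whether same-numbered libraries share a cell mix cannot be told from these correlations. The shares of the binding proteins moved by less than 1 SD with *Igfbp1* added. With 2 libraries a group, the shift of a share with 1 left out is a fixed part of the SD and shows nothing about its stability. Of the scalings, median centring shifted the median of all genes furthest, by 0.10 on the log2 scale, which bears on the small changes of *Igfbp2*, *Igfbp4* and *Igfbp7*. Where a library was left out, its group had 1 library, assumed to vary like the others. Depth limited the low genes: about 3 reads gave 0.0338 to 0.0472 RPKM for *Igfbp1*.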
